A study of Homo sapiens with 6 samples.

Results

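HDQ-P1 is an established human breast carcinoma cell line, and 39 genes of its epithelial junctions and of the epithelial-mesenchymal programme were followed by RNA-seq after exposure to Y-320, a phenylpyrazoleanilide compound studied as an enhancer of readthrough of premature stop codons. The members were chosen by name, as the rows of the deposited gene table whose Ensembl identifiers belong to a list of cadherin, catenin, desmosome, tight junction, epithelial identity and mesenchymal regulator genes. All 39 listed genes had a row among the 40295 rows of the table, and all 39 passed the filter on low counts. The series holds 6 libraries, 3 from untreated HDQ-P1 cells and 3 from HDQ-P1 cells exposed to 1 µM Y-320 for 48 h, all grown in high glucose DMEM with serum and antibiotic. Neither the labels nor the methods mention a solvent for the untreated cells, so solvent and compound cannot be told apart. Nothing in the labels says that replicates came from separate cultures, so the p-values measure the spread between these libraries, which may be technical.

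Epithelial cells are held together by several kinds of contact. In the adherens junction, classical cadherins bind across neighbouring cells and catenins tie their tails to actin. In the desmosome, desmogleins and desmocollins do the same for keratin filaments through plakoglobin, plakophilins and plakins, and in the tight junction, claudins and occludin seal the space between cells. Grainyhead-like and ESRP proteins maintain the epithelial programme through transcription and splicing, while ZEB, SNAI and TWIST factors are known repressors of it that are active in epithelial-mesenchymal transition, in which vimentin and N-cadherin usually replace keratins and E-cadherin.

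The members did not move as 1 block after Y-320. Of the 39, 13 were higher and 14 were lower by the quasi-likelihood test of edgeR, at a Benjamini-Hochberg adjusted p under 0.05 over 16580 genes (called the edgeR adjusted p from here on), and 12 did not pass. That is 69.2% of the members, where 51.5% of all genes tested passed, 26.2% higher and 25.4% lower. Levels are given as normalised CPM, in which TMM scaling puts the 6 library totals on a common scale, and a group of 3 libraries is listed in the order of replicates 1, 2 and 3. The groups did not overlap for 27 members, 13 with Y-320 above and 14 below, and for 59.2% of all genes tested, 29.8% above and 29.4% below. Genes with higher levels passed more often. Of the 10692 genes that averaged 10 CPM or more, 63.3% passed and 69.3% had groups that did not overlap, and 23 of the 31 members at that level passed (74.2%). The members' median log2 fold change was -0.063 and that of all genes 0.00097, while the median absolute log2 fold change was 0.30 for the members and 0.21 for all genes. Past the test, 2 members, CLDN3 and CDH11, changed by 1 log2 unit or more, as did 5.02% of all genes. Changes of 0.5 log2 units or more were found for 11 members and for 15.7% of all genes. No separate test of the list was made.

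The direction of the calls differed between role groups, which is a description and was not tested. Of the 11 tight junction members, CLDN3, OCLN, CLDN7, CLDN1 and CLDN4 were higher, CGN was lower and 5 did not pass, whereas every classical cadherin and catenin that passed the test was lower. The desmosome was divided between 3 higher and 4 lower genes, 3 of the 4 epithelial identity genes were higher and GRHL2 was lower, and of the mesenchymal group VIM and SNAI1 were higher and SNAI2 and ZEB2 lower. Summed over each role group, the level of classical cadherins went from 612, 642 and 631 CPM in the untreated libraries to 571, 586 and 578 CPM with Y-320. For catenins the sums were 1239, 1251 and 1247 CPM untreated and 1124, 1143 and 1148 CPM with Y-320. For the desmosome they were 1615, 1666 and 1682 CPM untreated and 1572, 1598 and 1600.4 CPM with Y-320. All 3 of these sums lay lower in every treated library than in every untreated one, by ratios of 0.921, 0.914 and 0.961. Tight junction genes summed to 942, 934 and 982 CPM and then 1108, 1129 and 1159 CPM, a ratio of 1.19. Epithelial adhesion and identity genes summed to 788, 806 and 791 CPM untreated and 882, 874 and 884 CPM with Y-320, a ratio of 1.11. The mesenchymal group summed to 658, 713 and 731 CPM untreated and 997, 1031 and 1021 CPM with Y-320, a ratio of 1.45. VIM makes up most of this sum and alone went from 593, 643 and 658 CPM to 941, 972 and 962 CPM. SNAI2, the next most abundant gene of the group, fell, so the ratio describes VIM and not the group as a whole. For 15 other mesenchymal genes outside the members the ratio of the sums was 0.903. These sums were not tested. In bulk RNA, fewer cells that express a gene and less RNA of it per cell cannot be told apart.

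**Figure D1:**
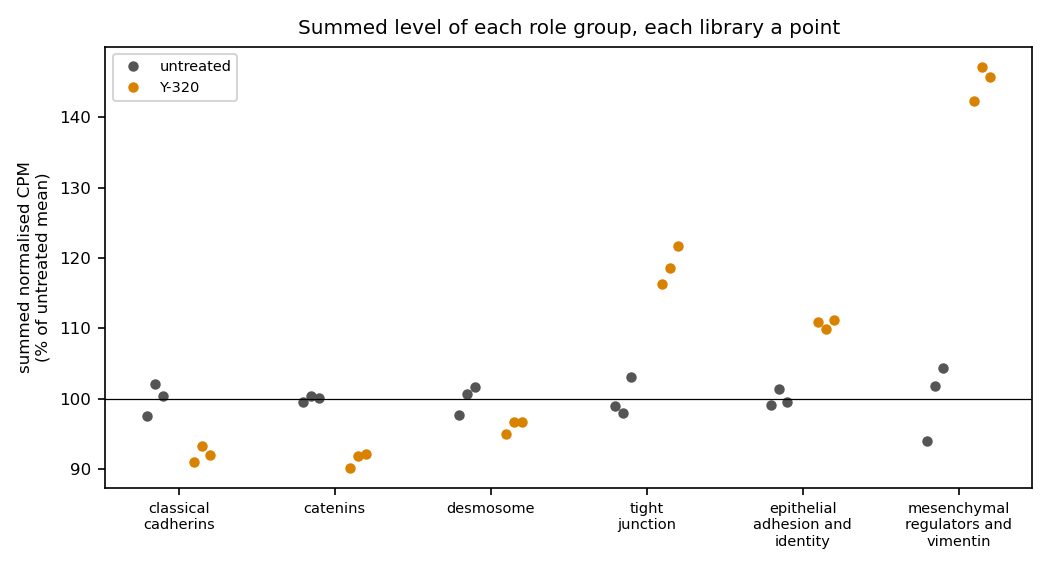
Summed normalised CPM of each of the 6 role groups in each library, as a percentage of the untreated mean of that group (vertical axis); each point is 1 library, grey for untreated and orange for Y-320, 3 per group. The treated points lie below the untreated points for classical cadherins, catenins and the desmosome. They lie above them for tight junction genes, epithelial identity genes and the mesenchymal group. The ratio reached 1.45 in the mesenchymal group, of which VIM makes up most.

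The gene start regions of 4 members are shown because they differ in their change: CLDN3 and CLDN7, the member claudins with the largest rise and the highest level, CGN, a tight junction gene that fell, and DSG2, which did not pass the test. The 250 bases before the RefSeq start are printed 5′ to 3′ on the gene's strand. Capitals mark a match to CACCTG or its reverse complement CAGGTG, the E-box bound by ZEB and SNAI factors, or to AACCNGTT on either strand, the kind of site bound by grainyhead-like factors. The 4 windows come from the RefSeq table on GRCh38.p14, at chr7:73770271-73770520 on the minus strand for CLDN3, chr17:7263214-7263463 on the minus strand for CLDN7, chr1:151511137-151511386 on the plus strand for CGN and chr18:31497927-31498176 on the plus strand for DSG2. None of the 4 overlaps an exon of a protein-coding gene in GENCODE 44. The CLDN7 and CGN windows lie inside the gene span of longer annotated transcripts.
CLDN3: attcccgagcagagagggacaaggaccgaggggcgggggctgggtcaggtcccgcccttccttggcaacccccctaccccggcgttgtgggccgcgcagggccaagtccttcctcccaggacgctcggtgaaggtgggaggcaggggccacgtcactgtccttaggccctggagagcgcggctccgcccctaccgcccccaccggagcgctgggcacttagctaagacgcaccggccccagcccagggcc
CLDN7: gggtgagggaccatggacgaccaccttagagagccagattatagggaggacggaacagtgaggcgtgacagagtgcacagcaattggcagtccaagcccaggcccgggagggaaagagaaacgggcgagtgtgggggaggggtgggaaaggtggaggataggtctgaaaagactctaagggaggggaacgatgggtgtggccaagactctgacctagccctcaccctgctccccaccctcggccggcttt
CGN: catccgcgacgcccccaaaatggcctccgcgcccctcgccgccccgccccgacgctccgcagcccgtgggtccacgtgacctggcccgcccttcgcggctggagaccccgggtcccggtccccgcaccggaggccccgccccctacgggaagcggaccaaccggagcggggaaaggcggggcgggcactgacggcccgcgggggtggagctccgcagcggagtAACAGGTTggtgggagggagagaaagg
DSG2: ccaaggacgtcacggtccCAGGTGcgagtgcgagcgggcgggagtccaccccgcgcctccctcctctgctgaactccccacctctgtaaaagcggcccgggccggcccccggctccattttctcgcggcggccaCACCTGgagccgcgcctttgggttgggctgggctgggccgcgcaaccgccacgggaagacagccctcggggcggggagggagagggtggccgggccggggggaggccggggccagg

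The CLDN3 and CLDN7 windows held neither motif. The CGN window held 1 match to the grainyhead-type motif, written AACAGGTT, with its first base 27 bases before the start, and the DSG2 window held 2 E-boxes, 232 and 116 bases before the start. A window was found for 22 of the 39 members. CACCTG was present on either strand in 6 of these 22 (27.3%) and in 17.5% of all 35116 windows. It was present in 2 of 8 windows of members that were higher, OCLN and DSP, in 1 of 6 of members that were lower, DSC2, and in 3 of 8 of members that did not pass, DSG2, TJP1 and ZEB1. AACCNGTT was present in 1 of the 22 member windows and in 1.49% of all windows. A match of letters is a description of the window and not a binding site, and the absence of a match concerns these 250 bases alone. None of the 22 windows held both motifs.

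Of 4 classical cadherins and 3 catenins, all but CDH3 fell, and CDH1, CTNNA1 and CTNND1 fell by under 10%. CDH1, the gene of E-cadherin (ENSG00000039068, chromosome 16 from 68737292 to 68835537 in GENCODE 44 on hg38, 16 exons in the canonical transcript), was the most abundant classical cadherin per kb of transcript. Its level was 321, 330.1 and 323 CPM in untreated cells and 304, 306 and 295 CPM with Y-320. The groups did not overlap, and the level fell by 7.19% (log2 fold change -0.11, standard error 0.025, edgeR adjusted p = 0.00427). CDH3, the gene of P-cadherin, had 256, 277 and 272 CPM untreated and 249, 259.8 and 263 CPM with Y-320. These groups overlapped and the gene did not pass the test (log2 fold change -0.060, standard error 0.034, edgeR adjusted p = 0.171), though it did without untreated replicate 1 (edgeR adjusted p = 0.0283).

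CDH2 (chromosome 18 from 27932879 to 28177946), the gene of N-cadherin, whose gain is a usual sign of epithelial-mesenchymal transition, was at 34.5, 34.2 and 34.5 CPM in untreated cells and 18.6, 19.8 and 20.3 CPM after Y-320. Every treated library lay well below every untreated one, and the level fell by 43.1% (log2 fold change -0.81, standard error 0.046, edgeR adjusted p = 2.12e-07). CDH11 (chromosome 16 from 64943753 to 65126112), the gene of the mesenchymal OB-cadherin, was the least abundant member, with 16, 11 and 23 estimated counts in untreated libraries and 2.00, 6.12 and 0 with Y-320. The gene fell in the fit (log2 fold change -2.62, standard error 0.64, edgeR adjusted p = 0.00594). The value rests on these few counts and ran from -3.95 to -2.06 when 1 library at a time was left out. As a share of the 4 classical cadherin members per kb, CDH1 held 49.5% ± 0.64 (SD, n = 3) untreated and 50.0% ± 1.11 with Y-320. CDH2 held 6.28% ± 0.17 and then 3.89% ± 0.15, while CDH3 held 44.1% ± 0.79 and 46.1% ± 0.97. The pool as a whole went from 136 ± 3.26 to 125 ± 1.63 CPM per kb.

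The 3 members of the catenin group, whose proteins act at cadherin tails, were all lower. JUP, also of the catenin family, is counted here with the desmosome and did not pass. CTNNA1, the gene of α-catenin and the most abundant of the group of 3 per kb, had 553, 568 and 564 CPM untreated and 525, 530.3 and 533 CPM with Y-320. The groups were close but separate, and the level fell by 5.74% (log2 fold change -0.085, standard error 0.021, edgeR adjusted p = 0.00641). CTNNB1, the gene of β-catenin, which also serves Wnt signalling, fell by 19.7% from 292 ± 5.80 to 235 ± 6.70 CPM (mean ± SD, n = 3; log2 fold change -0.32, standard error 0.028, edgeR adjusted p = 6.54e-06). CTNND1, the gene of p120-catenin, which stabilises cadherins at the membrane, fell by 4.56% (log2 fold change -0.067, standard error 0.021, edgeR adjusted p = 0.0228), and this call was lost without any 1 library other than untreated replicate 1 (edgeR adjusted p from 0.0549 to 0.0769). Its reads are also uncertain, since 40.9% of its 31-base words occur in other genes. Outside the members, ENSG00000288534 holds more of these words than any other gene. That gene overlaps CTNND1 on the same strand and has no row in the table.

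Desmosomal genes moved in both directions. Of the 4 desmosomal cadherins, 1 was higher, 1 was lower and 2 did not pass. DSG2, the gene of desmoglein 2, held 92.1% ± 0.22 of the desmosomal cadherin level per kb in untreated cells and 92.2% ± 0.23 with Y-320. Its level was 261, 261 and 266 CPM untreated and 253, 257 and 261 CPM with Y-320, groups that overlapped (log2 fold change -0.031, standard error 0.024, edgeR adjusted p = 0.307). DSC2, the gene of desmocollin 2, fell by 9.86% from 36.7 ± 0.743 to 33.1 ± 1.79 CPM (edgeR adjusted p = 0.0206), a call that was lost with DESeq2 and without untreated replicate 3, Y-320 replicate 1 or Y-320 replicate 3 (edgeR adjusted p from 0.0693 to 0.0735). DSG3, a desmoglein of stratified epithelium, was at 3.98 ± 0.348 CPM and rose to 5.14 ± 0.338 CPM (log2 fold change 0.37, standard error 0.12, edgeR adjusted p = 0.0248), a call lost with DESeq2 and without untreated replicate 1, untreated replicate 3 or Y-320 replicate 3 (edgeR adjusted p from 0.0536 to 0.0874). DSC3, the gene of desmocollin 3, was weakly expressed, with 1.36, 2.21 and 1.91 CPM untreated and 1.49, 1.41 and 1.47 CPM with Y-320. Untreated replicate 1 lay below all treated libraries and the other untreated replicates above them, and the test was not passed (log2 fold change -0.31, standard error 0.22, edgeR adjusted p = 0.271).

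The plaque proteins, which link those cadherins to keratin filaments, moved in both directions. JUP, the gene of plakoglobin and the most abundant desmosome member per kb, had 488, 514 and 516 CPM untreated and 505, 494 and 488 CPM with Y-320. The groups overlapped (log2 fold change -0.030, standard error 0.027, edgeR adjusted p = 0.388). PKP2 (chromosome 12 from 32790745 to 32896798), the gene of plakophilin 2, had 114, 116 and 114 CPM untreated and 64.1, 63.5 and 63.5 CPM with Y-320. All 3 treated libraries lay within 1 CPM of each other and far below the untreated ones, 1.80-fold lower (log2 fold change -0.85, standard error 0.028, edgeR adjusted p = 5.16e-09). Other genes hold 13.3% of the 31-base words of PKP2. Outside the members, ENSG00000256913 holds more of them than any other gene, and its row held at most 1.1 counts in any library. PKP3, the gene of plakophilin 3, rose instead, from 87.6 ± 1.45 to 99.2 ± 1.16 CPM (log2 fold change 0.18, standard error 0.028, edgeR adjusted p = 0.00037). PKP1, a plakophilin of stratified epithelium, was at 3.08, 2.78 and 2.58 CPM untreated and 1.88, 2.33 and 2.66 CPM with Y-320, with overlapping groups (edgeR adjusted p = 0.191). Among plakophilins 1 to 4 per kb, PKP2 thus went from 31.3% ± 0.19 to 19.4% ± 0.13 of the pool and PKP3 from 35.9% ± 0.22 to 45.4% ± 0.54.

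Plakins, the large linker proteins, also moved in both directions. DSP, the gene of desmoplakin, which anchors keratin filaments to the plaque, rose from 309 ± 7.17 to 399 ± 14.2 CPM (log2 fold change 0.37, standard error 0.031, edgeR adjusted p = 3.67e-06). PPL (chromosome 16 from 4882507 to 4960741), the gene of periplakin, was at 221, 229 and 236 CPM in untreated cells and 147, 152 and 155 CPM after Y-320. No treated library reached the lowest untreated one, and the gene fell by 33.9% (log2 fold change -0.60, standard error 0.033, edgeR adjusted p = 1.72e-07). EVPL, the gene of envoplakin, the partner of periplakin in the cornified envelope, fell by 17.9% from 100.1 ± 2.13 to 82.1 ± 0.731 CPM (edgeR adjusted p = 1.67e-05). Of the 3 plakins per kb, DSP held 38% ± 0.28 untreated and 52.7% ± 0.54 with Y-320, while PPL went from 43.6% ± 0.40 to 31% ± 0.16. The order of DSP and PPL was inverted in all 3 treated libraries.

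**Figure D2:**
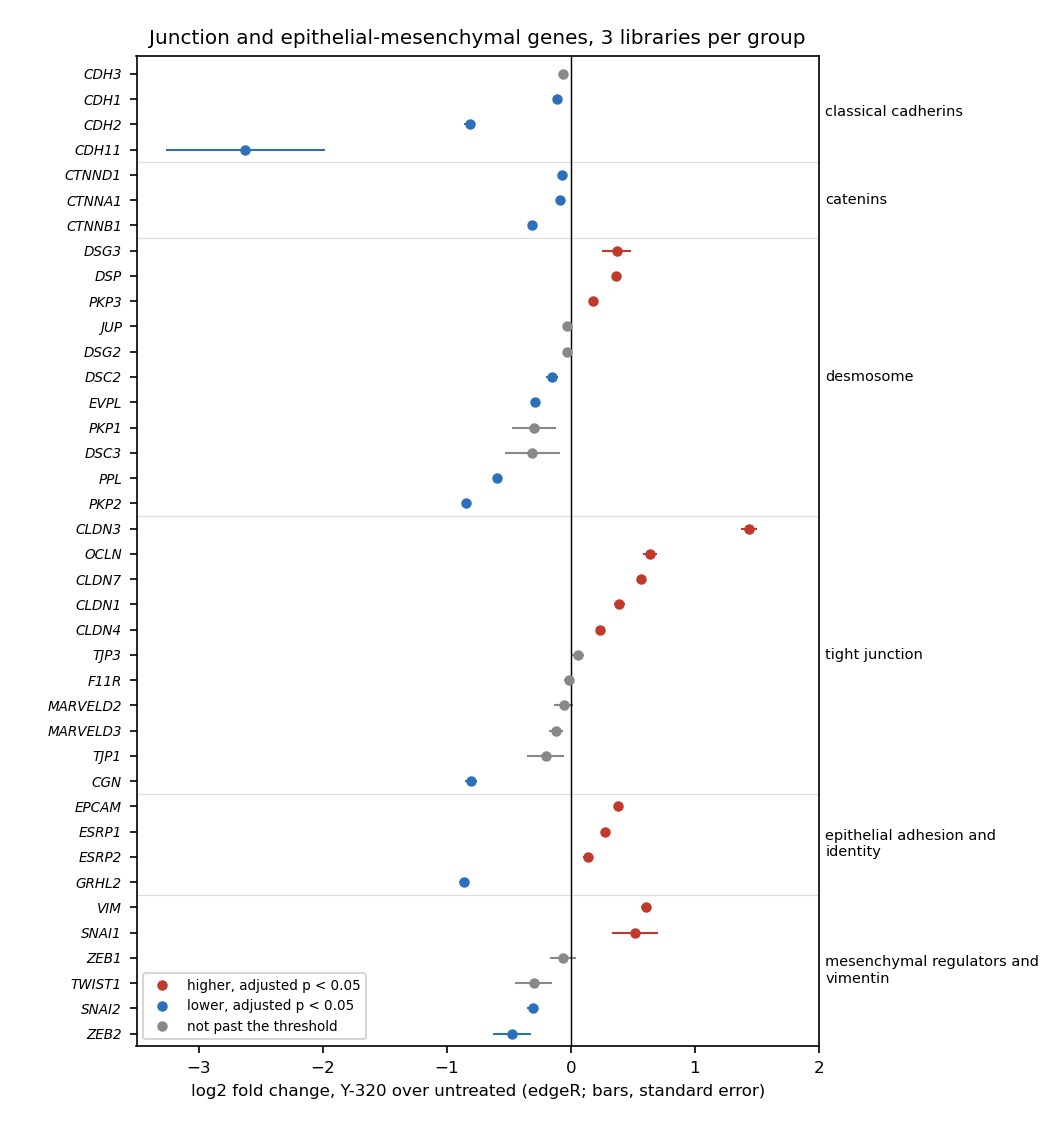
Log2 fold change of each of the 39 members, Y-320 over untreated (horizontal axis, from edgeR), grouped by role; bars are standard errors, and colour shows whether a gene was higher, lower or not past an adjusted p of 0.05. CLDN3 stands furthest to the right at 1.43 and CDH11 furthest to the left at -2.62 with the widest bar. All called genes of the classical cadherin and catenin groups lie left of 0.

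Among the tight junction members, the 4 claudins and OCLN rose. Claudins outside the member list went both ways, and CLDN11 and CLDN10 fell. CLDN12 rose from 64.2 ± 2.78 to 87.7 ± 2.68 CPM (edgeR adjusted p = 5.1e-06) and CLDN15 from 6.19 ± 0.283 to 7.78 ± 0.45 CPM (edgeR adjusted p = 0.0131). CLDN3 (ENSG00000165215, chromosome 7 from 73768997 to 73770270, a single exon), a claudin of simple epithelia, was at 16.4, 14.8 and 17.9 CPM untreated and 46.5, 42.7 and 43.8 CPM with Y-320. Each treated library was well above the untreated range, 2.70-fold higher in the fit (log2 fold change 1.43, standard error 0.065, edgeR adjusted p = 4.24e-08). CLDN7 (chromosome 17 from 7259903 to 7263983), the most abundant tight junction member per kb, was at 224, 229 and 229 CPM untreated and 330.1, 342 and 339 CPM with Y-320. Those groups were also far apart, 1.48-fold higher (log2 fold change 0.57, standard error 0.025, edgeR adjusted p = 3.14e-08). CLDN1, a barrier-forming claudin of many epithelia, rose from 103 ± 1.94 to 135 ± 7.61 CPM (log2 fold change 0.39, standard error 0.041, edgeR adjusted p = 1.88e-05). CLDN4, the neighbour of CLDN3 on chromosome 7, rose from 181 ± 4.58 to 213 ± 3.64 CPM (log2 fold change 0.23, standard error 0.028, edgeR adjusted p = 5.3e-05).

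OCLN (chromosome 5 from 69492292 to 69558104), the gene of occludin, a membrane protein of the strands, had 34.2, 30.4 and 35.5 CPM untreated and 50.4, 51.8 and 53.6 CPM with Y-320. The treated libraries all lay above the untreated ones, 1.56-fold higher (log2 fold change 0.64, standard error 0.054, edgeR adjusted p = 4.27e-06). Other genes hold 13.0% of the 31-base words of OCLN. Outside the members, its pseudogene copy OCLNP1 holds more of them than any other gene. The OCLNP1 row was at 0 in every library, and the other genes were not checked. The membrane protein genes MARVELD2, MARVELD3 and F11R did not pass. MARVELD2, the gene of tricellulin, was at 16.9, 16.04 and 14.7 CPM untreated and 14.2, 15.2 and 16.4 CPM with Y-320 (edgeR adjusted p = 0.577). MARVELD3, an occludin relative, was at 39.5, 35.5 and 40.97 CPM untreated and 35.9, 36.6 and 34.2 CPM with Y-320 (log2 fold change -0.12, edgeR adjusted p = 0.0955). The groups overlapped for both genes. Other genes hold 25.3% of the words of MARVELD3, so its reads are uncertain. Outside the members, its neighbour PHLPP2 holds more of them than any other gene. MARVELD3 passed without untreated replicate 2 (edgeR adjusted p = 0.0138). F11R, the gene of the adhesion molecule JAM-A, was at 196, 194 and 201 CPM untreated and 193, 186 and 205 CPM with Y-320, again with overlapping groups (log2 fold change -0.018, standard error 0.036, edgeR adjusted p = 0.703). Other genes hold 41.5% of the words of F11R, and outside the members ENSG00000270149 holds more of them than any other gene. The sum of the rows of F11R and ENSG00000270149, added after seeing the values, gave a log2 fold change of -0.0012.

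Of the cytoplasmic plaque genes of the tight junction, CGN fell and TJP1 and TJP3 did not pass. CGN (chromosome 1 from 151510510 to 151538692), the gene of cingulin, which binds actin and guanine exchange factors, was at 70.1, 70.5 and 75.3 CPM untreated and 39.7, 40.3 and 43.8 CPM with Y-320. Its treated libraries were all below the untreated ones, and the level fell by 42.7% (log2 fold change -0.80, standard error 0.046, edgeR adjusted p = 2.4e-07). TJP1, the gene of the scaffold ZO-1, was at 37.98, 32.8 and 54.3 CPM untreated and 33.4, 37.7 and 37.8 CPM with Y-320. Untreated replicate 3 stood above the other 5 libraries, and the test was not passed (log2 fold change -0.20, standard error 0.15, edgeR adjusted p = 0.293). Without that library the log2 fold change was 0.035. TJP3, the gene of ZO-3, was at 26.05, 27.7 and 25.2 CPM untreated and 27.9, 27.4 and 26.9 CPM with Y-320, with overlapping groups (edgeR adjusted p = 0.321).

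**Figure D3:**
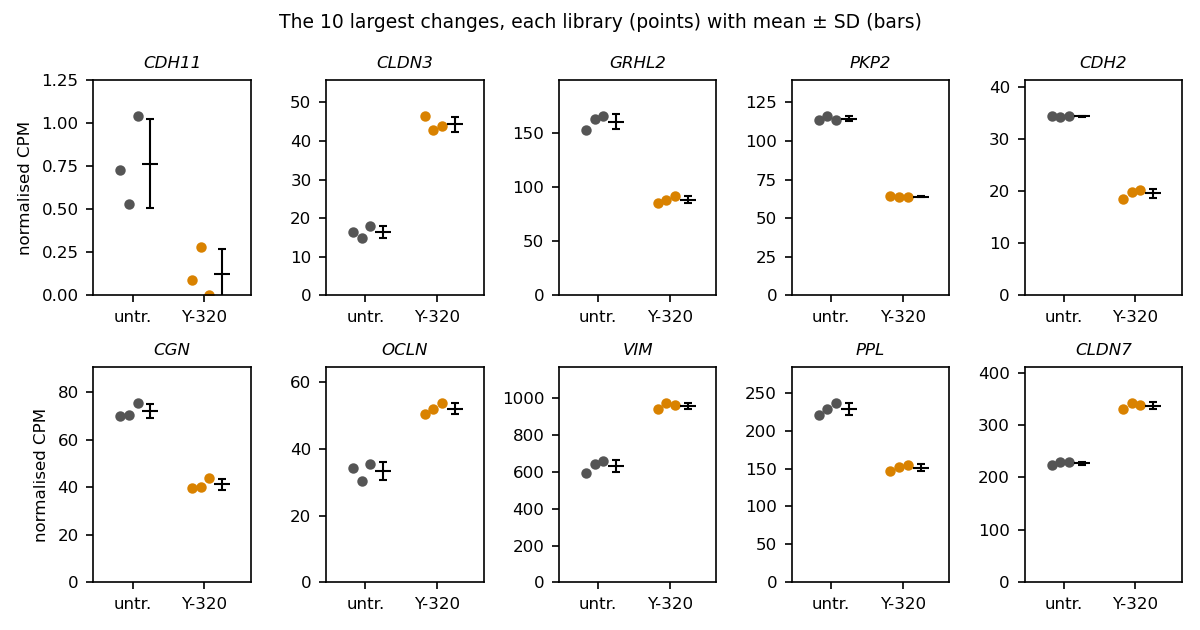
Normalised CPM (vertical axes, each from 0) of the 10 members with the largest absolute log2 fold changes past the threshold; points are libraries, grey for untreated and orange for Y-320, with the mean ± SD of 3 as a bar beside them. The groups are separate in every panel, and the treated points are higher for CLDN3, OCLN, VIM and CLDN7 and lower for the other 6.

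Within the claudin family the make-up of the mRNA pool changed. Summed over the claudins per kb of transcript, the level went from 384 ± 5.38 to 462 ± 7.72 CPM per kb (mean ± SD, n = 3), higher in all 3 treated libraries. CLDN7 went from 38.4% ± 0.16 to 47.3% ± 0.35 of that pool and CLDN3 from 3.35% ± 0.31 to 7.54% ± 0.45, while CLDN4 held 27.9% ± 0.32 and then 27.2% ± 0.13. The claudin that lost the largest share lies outside the member list. CLDN11, a claudin best known from myelin and the testis, was at 151, 162 and 159.7 CPM untreated and 18.7, 19.3 and 20.2 CPM with Y-320, without overlap (log2 fold change -3.02, standard error 0.043, edgeR adjusted p = 6.47e-11). It held 14.9% ± 0.39 of the claudin pool untreated and 1.52% ± 0.04 after Y-320.

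**Figure D4:**
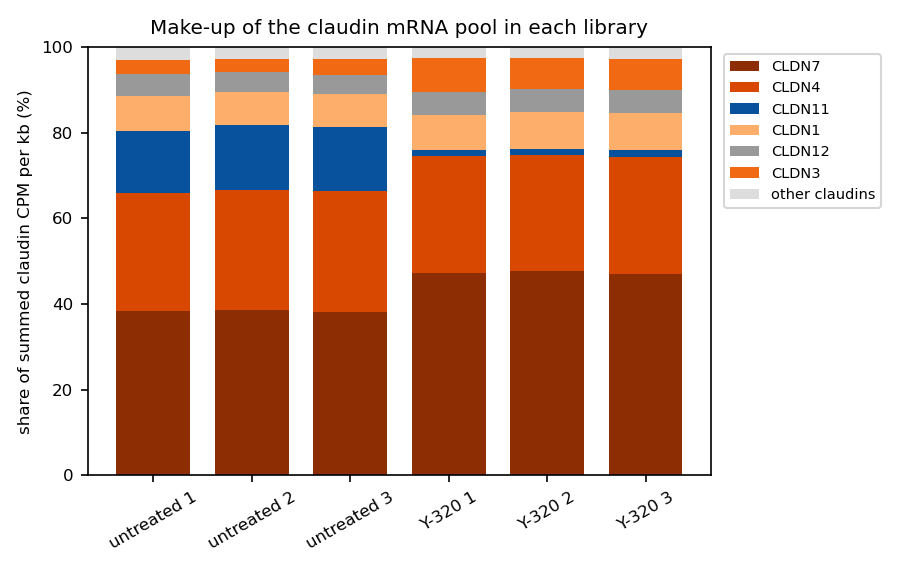
Share of the summed claudin level (CPM per kb of canonical transcript, vertical axis in percent) in each of the 6 libraries. CLDN7, CLDN4, CLDN11, CLDN1, CLDN12 and CLDN3 are drawn separately, and the other claudins are pooled in grey. CLDN11 shrinks from 14.9% to 1.52% on average, and CLDN7 and CLDN3 widen to 47.3% and 7.54%.

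Epithelial identity genes were higher with 1 exception. EPCAM, the gene of an epithelial surface adhesion protein and the most abundant of its role group per kb, was at 310.0, 307 and 297 CPM untreated and 406, 391 and 391 CPM with Y-320. The groups did not overlap, with a 1.30-fold higher level (log2 fold change 0.38, standard error 0.027, edgeR adjusted p = 1.04e-06). ESRP1 and ESRP2 encode splicing factors that keep epithelial isoforms. ESRP1 rose from 288 ± 5.70 to 349 ± 5.62 CPM (log2 fold change 0.28, standard error 0.025, edgeR adjusted p = 6.55e-06), and ESRP2 from 42.6 ± 0.595 to 46.8 ± 0.344 CPM (log2 fold change 0.14, edgeR adjusted p = 0.00657). The ESRP2 call was lost with DESeq2, at an adjusted p of 0.0914.

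GRHL2 (chromosome 8 from 101492439 to 101669726), a transcription factor that activates junction genes in many epithelia, went the other way. It was at 152, 162 and 166 CPM untreated and 85.3, 87.9 and 91.9 CPM with Y-320. Every treated library was below every untreated one, 1.81-fold lower (log2 fold change -0.86, standard error 0.039, edgeR adjusted p = 4.81e-08). Its paralog GRHL1 was at 14.1, 13.01 and 12.4 CPM untreated and 24.7, 23.02 and 21.9 CPM with Y-320, and rose (log2 fold change 0.81, standard error 0.068, edgeR adjusted p = 3.77e-06). Of the 3 grainyhead-like genes per kb, GRHL2 held 87.3% ± 1.15 untreated and 71.1% ± 2.04 with Y-320, and GRHL1 10.6% ± 1.03 and 27.4% ± 1.88. The family as a whole went from 35.1 ± 1.06 to 23.8 ± 0.216 CPM per kb.

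Mesenchymal genes did not move together. VIM (chromosome 10 from 17228241 to 17237593), the gene of the intermediate filament vimentin and the most abundant of all 39 members per kb in both groups, was at 593, 643 and 658 CPM untreated and 941, 972 and 962 CPM with Y-320. The lowest treated library lay above the highest untreated one, 1.52-fold higher (log2 fold change 0.60, standard error 0.035, edgeR adjusted p = 2.61e-07). Other genes hold 23.2% of the words of VIM. Outside the members, its antisense gene VIM-AS1 holds more of them than any other gene. VIM-AS1 has no row, and the sources used here do not say whether strand was kept. SNAI2, the gene of the repressor SLUG, was the most abundant of the 5 transcription factors per kb and fell by 19.1% from 47.5 ± 2.30 to 38.4 ± 1.21 CPM (log2 fold change -0.31, standard error 0.045, edgeR adjusted p = 0.000244). ZEB2, a repressor of E-cadherin transcription, fell from 2.89 ± 0.123 to 2.08 ± 0.189 CPM (edgeR adjusted p = 0.026). SNAI1, the gene of SNAIL, rose from 1.40 ± 0.0895 to 2.01 ± 0.204 CPM (log2 fold change 0.52, standard error 0.19, edgeR adjusted p = 0.039). The SNAI1 call was lost whichever library was left out (edgeR adjusted p from 0.0589 to 0.128), and the ZEB2 call without any library other than Y-320 replicate 2 (edgeR adjusted p from 0.0509 to 0.0804). Both calls were also lost with DESeq2, at adjusted p of 0.217 for SNAI1 and 0.163 for ZEB2.

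ZEB1, the other ZEB repressor, was at 9.05, 7.62 and 8.75 CPM untreated and 8.83, 8.26 and 7.28 CPM with Y-320. The groups overlapped and the test was not passed (log2 fold change -0.063, standard error 0.10, edgeR adjusted p = 0.64). TWIST1, a helix-loop-helix factor of mesenchyme, was at 7.11, 9.35 and 10.1 CPM untreated and 6.30, 6.73 and 8.53 CPM with Y-320, also overlapping (log2 fold change -0.30, standard error 0.15, edgeR adjusted p = 0.121). Without untreated replicate 1 or without Y-320 replicate 3, TWIST1 passed the test, at an edgeR adjusted p of 0.0227 and 0.0367.

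In untreated cells the members spanned a wide range of levels per kb. VIM led at 293 ± 15.9 CPM per kb, followed by EPCAM at 197 ± 4.46. CTNNA1, CLDN7 and JUP came next at 149.6 ± 2.101, 147 ± 1.90 and 144 ± 4.41 CPM per kb, and the library ranges of neighbours in this order overlapped. At the low end stood ZEB2 at 0.312 ± 0.0133, DSC3 at 0.241 ± 0.0575 and CDH11 at 0.114 ± 0.0386 CPM per kb. With Y-320 the order of the leading genes changed at the third place, which CLDN7 took at 218 ± 3.92 CPM per kb, ahead of JUP at 141 ± 2.33 and CTNNA1 at 141 ± 1.11, whose ranges overlapped.

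The wider pathway was read from further lists, whose named genes all passed the test and whose counts are given against the 26.2% of all genes that were higher and the 25.4% that were lower. Of 12 genes of the nectin-afadin system and other adherens junction proteins, 9 were tested, 3 were higher and 5 lower, with a median log2 fold change of -0.41. LIMA1, an actin-binding protein of the cadherin complex, fell from 199.96 ± 5.47 to 106 ± 4.96 CPM, and VCL, the gene of vinculin, from 316 ± 3.03 to 219 ± 2.96 CPM, while NECTIN4, an adhesion receptor of the immunoglobulin family, rose from 13.6 ± 0.969 to 26.3 ± 1.76 CPM and ARVCF, a relative of p120-catenin, from 9.59 ± 0.082 to 15.6 ± 0.573 CPM. Of 24 further tight junction genes 15 were tested, 5 higher (3 with DESeq2) and 3 lower, with a median log2 fold change of 0.27. Beside CLDN11, CLDN10, a channel-forming claudin, fell from 3.39 ± 0.178 to 1.03 ± 0.0339 CPM, JAM2, a junctional adhesion molecule, from 3.48 ± 0.56 to 1.99 ± 0.18 CPM, and CXADR, an immunoglobulin-type junction protein, rose from 53.5 ± 2.55 to 79.5 ± 2.68 CPM. Of 7 further desmosome and cornified envelope genes 3 were tested and 2 were lower, IVL, the gene of involucrin, from 6.21 ± 0.706 to 2.19 ± 0.223 CPM, and PERP, the gene of a desmosome membrane protein, from 681 ± 14.4 to 629.8 ± 2.97 CPM.

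Epithelial transcription factors other than GRHL2 also went both ways, with 4 of 11 tested genes higher and 6 lower. KLF4, a zinc finger factor of differentiating epithelium, rose from 17.5 ± 0.794 to 58.9 ± 4.30 CPM (log2 fold change 1.75, standard error 0.063, edgeR adjusted p = 9.02e-09). ELF3, an epithelial ETS factor, rose from 164 ± 1.81 to 236 ± 5.16 CPM, and GRHL3 fell from 2.14 ± 0.0888 to 1.03 ± 0.167 CPM. Other mesenchymal genes were lower in 7 and higher in 2 of 14 tested, with a median log2 fold change of -0.35. TAGLN, the gene of the actin-binding protein transgelin, fell from 18.1 ± 1.69 to 4.90 ± 0.229 CPM, TCF4, a helix-loop-helix factor, from 3.10 ± 0.182 to 1.00 ± 0.346 CPM, FN1, the gene of fibronectin, from 147 ± 12.1 to 75.6 ± 4.62 CPM, and AXL, a receptor kinase, from 164 ± 3.41 to 105 ± 3.05 CPM. VIM rose in the same libraries in which these 4 genes fell, and so did the 2 higher genes of the list. Those were CD44, from 455 ± 9.22 to 575 ± 25.2 CPM, and NT5E, from 108 ± 3.63 to 123 ± 4.13 CPM.

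**Figure D5:**
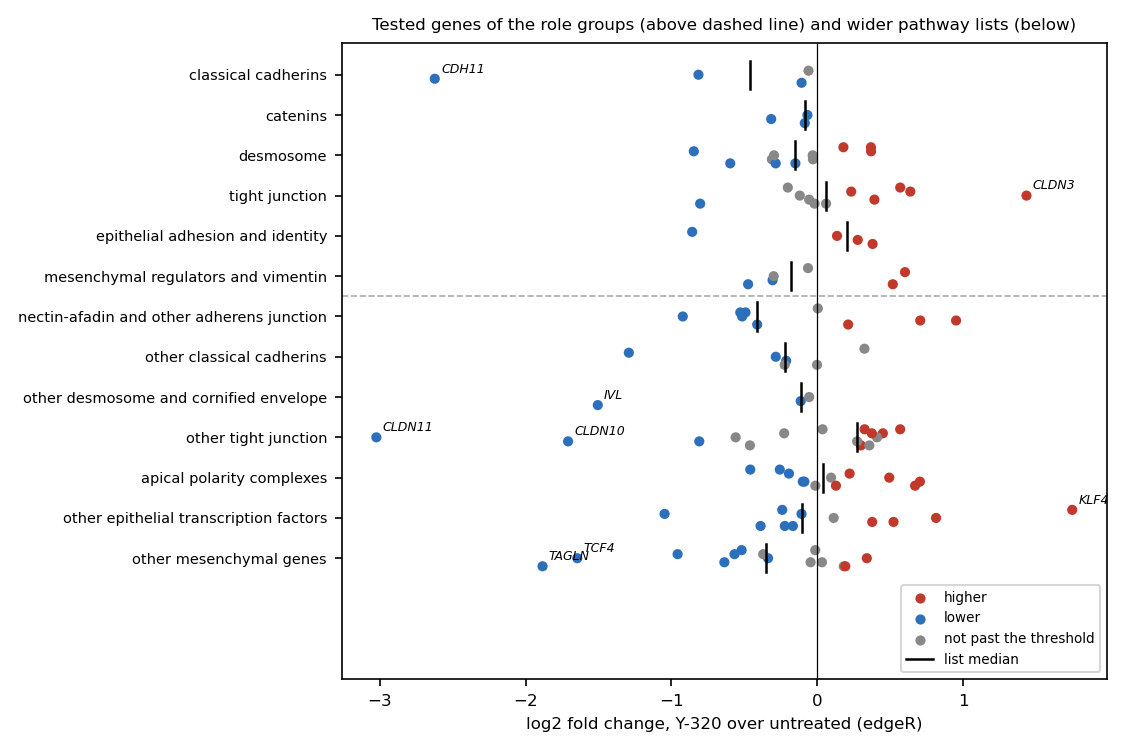
Log2 fold change of each tested gene, Y-320 over untreated (horizontal axis, from edgeR), in the 6 role groups of members (above the dashed line) and 7 lists of related genes (below it); black bars are list medians and colour shows the call. CLDN3 at 1.43 and KLF4 at 1.75 stand at the high end, and CLDN11 at -3.02 and CDH11 at -2.62 at the low end.

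The epithelial character of the line was checked against markers. All 9 epithelial markers were expressed, from 3.92 CPM for KRT14 to 3716 CPM for KRT7 in untreated cells, and 8 of the 9 were lower with Y-320. The keratins, filament proteins to which desmosomes attach, accounted for 7 of these 8. KRT5 was at 388, 400.4 and 395 CPM untreated and 67.1, 73.5 and 77.3 CPM with Y-320 (log2 fold change -2.44, standard error 0.043, edgeR adjusted p = 2e-10), and KRT8 at 2767, 2866 and 2807 CPM untreated and 1379, 1387 and 1391 CPM with Y-320. Of 8 fibroblast markers 7 were tested and 4 were lower, and their summed level was 250.4 to 287 CPM untreated and 127 to 148 CPM with Y-320, led by COL1A2 at 148 CPM. COL3A1, a collagen gene of this list, was at 4.12, 5.61 and 14.5 CPM untreated and 1.75, 7.28 and 1.71 CPM with Y-320. Its groups overlapped and it did not pass the test (edgeR adjusted p = 0.111). COL3A1 was highest in untreated replicate 3, the library in which TJP1 was also highest. It was next highest in Y-320 replicate 2, where TJP1 was at 37.7 CPM, within the range of the other libraries. A link between these genes was not tested. Leukocyte markers summed to 1.43 to 2.36 and 2.68 to 2.83 CPM, with MS4A1 at 0 in every library, and endothelial markers to 18.4 to 19.7 and 15.4 to 19.0 CPM, led by CDH5 untreated and by PECAM1 with Y-320. The part of these lists in the changes of VIM, CDH2 and CDH11 was not tested. The libraries held 21045401 to 22740535 counts, and 1 count was worth 0.0440 to 0.0475 CPM. Replicate libraries gave a chi-square per degree of freedom of 2.02 to 2.98, where sampling noise alone gives about 1, and treated against untreated ones gave 40.2 to 42.1.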

How the data were processed

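RNA of 3 untreated and 3 Y-320 treated HDQ-P1 samples was sequenced on an Illumina NextSeq instrument. The authors deposited 1 table of estimated counts per gene for the 6 libraries, without normalization. Kallisto 0.46.1 and hg38 are named in the submitters' processing notes, and hg38 also in the study's methods, while the Ensembl release is not given in the sources used here. Kallisto divides reads that match several transcripts, so genes with shared sequence are less certain. The share of each member's 31-base words found in other genes was counted in GENCODE 44 transcripts, which also gave the coordinates and the canonical transcript lengths used for CPM per kb. Beside the shares given with the genes, this share was 12% for CDH3 and 10.3% for MARVELD2, and lower for the other members.

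Identifiers were matched to gene names for 35390 of 40295 rows, including all 39 members. Counts were rounded, filtered with filterByExpr (minimum 10 counts, 15 in total), scaled by TMM and fitted without a block by edgeR 4.0.16 in R 4.3.3 (glmQLFit and glmQLFTest), with Benjamini-Hochberg adjustment over 16580 genes and a threshold of 0.05. An exact permutation test of 3 against 3 libraries cannot go below p = 0.1 and was not used. Depth was 21045401 to 22740535 counts per library, and the common dispersion was 0.00104. On simulated data with 200 changed genes among 16580, the fit recovered 81% of them. It recovered 89.4% of those changed by at least 1 log2 unit and 64.7% of those changed by 0.5. Unchanged genes made up 14.7% of its calls, more than the threshold of 0.05 aims at. In the data 51.5% of the genes tested passed, so these shares may not carry over to the calls made here.

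The members, role groups and related lists were chosen with earlier results of these data known. Library values are given for the 10 largest changes past the threshold, the members that did not pass and the most abundant member per kb of each role group. Of each related list at most 4 genes are named by rule, those with the largest change past the threshold and a mean of at least 1 CPM. CLDN12, CLDN15, CD44 and NT5E are named beside these. KRT5, KRT8, KRT7, KRT14, COL1A2, COL3A1, MS4A1, PECAM1 and CDH5 were named from the marker lists after their values were seen, and another marker is not reported here. Alternatives were no filter, a stricter filter, DESeq2 1.42.0, limma-voom (limma 3.58.1), other scalings, a replicate block, unrounded counts, an adjusted p of 0.01 and leaving out each library. Start windows came from a RefSeq table on GRCh38.p14, which held 22 of the 39 members and did not hold, among others, CDH1, EPCAM and GRHL2. Python 3.11.15 was used for tables (pandas 2.3.3, numpy 2.4.6) and plots (matplotlib 3.10.9).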

Additional observations from a re-analysis of the deposited data

How the results depend on the processing

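Of the 27 members past the threshold, 21 kept their call and direction under all alternatives at the same threshold that tested them, with CDH11 removed by the stricter filter. At an adjusted p under 0.01, 11 were higher and 11 lower. CTNND1, DSC2, DSG3, ESRP2, ZEB2 and SNAI1 lost theirs under at least 1. Over 585 alternative values of the members, 545 kept direction and side of the threshold, 31 lost the call, 6 gained it and 3 changed sign: TJP1 without untreated replicate 3 (0.035), F11R without Y-320 replicate 2 (0.016) and ZEB1 without Y-320 replicate 3 (0.012), none past the threshold before or after. With 1 library left out, TJP1 ranged from -0.35 to 0.035, F11R from -0.056 to 0.016 and ZEB1 from -0.13 to 0.012. The cause was not tested. The number of members higher was 10 with DESeq2 and 11 to 12 with 1 library left out, and the number lower was 12 and 11 to 15. The summed log2 ratio moved by more than the library spread with upper-quartile scaling for classical cadherins (-0.15), catenins (-0.16), the desmosome (-0.086) and epithelial identity genes (0.12), and for catenins with library size scaling (-0.12), all in the same direction. Upper-quartile scaling moved the median of all genes to -0.028.

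With the replicate number as a block, 12 members were higher and 15 lower. SNAI1 lost its call (edgeR adjusted p = 0.0723) and TWIST1 gained one (edgeR adjusted p = 0.0326). Libraries with the same number did not deviate together (correlations of -0.0024, 0.016 and 0.0022), so the numbers were not taken as pairs. SNAI1, ZEB2, CDH11, DSC3 and PKP1 had a mean under 3 CPM in both groups, where 1 count is worth 0.0440 to 0.0475 CPM. Among related lists, DESeq2 gave 1 of the other classical cadherins lower and 3 of the other tight junction genes higher.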

Other observations

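Apical polarity complexes, which position the tight junction at the top of the lateral membrane, were all expressed, and 5 of the 12 genes were higher and 5 lower, with a median log2 fold change of 0.041. CRB3, the gene of the apical membrane protein Crumbs 3, rose from 14.6 ± 0.70 to 23.2 ± 0.537 CPM (mean ± SD, n = 3; log2 fold change 0.67, edgeR adjusted p = 3.34e-06). PALS1, the gene of the adaptor that binds the tail of Crumbs 3, fell from 96.6 ± 2.84 to 70.3 ± 3.74 CPM (log2 fold change -0.46, edgeR adjusted p = 6.7e-06). PARD6A and PARD6B, genes of adaptors of the PAR complex, rose from 6.14 ± 0.861 to 9.99 ± 1.19 CPM and from 9.96 ± 0.338 to 14.0 ± 1.22 CPM.

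Of 14 other classical cadherins, 6 were tested, none was higher and 3 were lower (1 with DESeq2). CDH5, the gene of VE-cadherin, a cadherin best known from endothelium, was at 14.0, 14.3 and 12.4 CPM untreated and 5.47, 5.54 and 5.60 CPM with Y-320 (log2 fold change -1.29, edgeR adjusted p = 5.91e-07). PECAM1, another endothelial gene, rose in the same libraries from 3.98 ± 0.325 to 9.27 ± 2.09 CPM (edgeR adjusted p = 0.00011). CDH24 fell from 12.7 ± 0.988 to 10.4 ± 0.225 CPM and CDH19 from 17.5 ± 0.567 to 15.1 ± 0.904 CPM.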
